A study of Mus musculus with 24 samples.

Results

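Osteopontin, Cd44 and the integrin subunits that bind osteopontin were followed through neurons and glia of the hippocampus 24 hours after kainate. The 9 genes were listed by name, with earlier results of these data known, so that the number of them called is a description and not independent evidence. They are Spp1 (osteopontin), Cd44, the alpha subunits Itgav, Itga4, Itga5 and Itga9, and the beta subunits Itgb1, Itgb3 and Itgb5. These are 9 of 53379 genes in the count table, and all 9 were among the 37598 genes that passed the filter on low counts. Adult male C57/BL6N mice received kainic acid (KA) in the deep cortex beside the right hippocampus, or saline in the same procedure (sham, SH). All of them had the same anaesthesia and buprenorphine, and KA mice without convulsive seizures had been left out by the study. The right hippocampi of 8 mice per treatment made 3 pools: replicate 1 combined 4 mice and the other replicates 2 mice each. A sort of each pool's nuclei by NeuN, a nuclear protein of most neurons, gave 4 groups of 3 libraries: SH neurons, KA neurons, SH glia and KA glia. "Neurons" are NeuN+ nuclei and "glia" NeuN- nuclei. The NeuN- nuclei can hold any cell that is not a neuron, and also neurons without NeuN. The libraries measured polyadenylated RNA of nuclei, not of whole cells. Most were made from 1 ng RNA in 10 PCR cycles. The exceptions, called low-input here, were SH glia replicate 1 and KA glia replicate 2 (0.05 ng, 15 cycles).

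Osteopontin is a secreted, phosphorylated glycoprotein of the extracellular matrix that also acts as a cytokine. It carries an RGD sequence for integrins of the alpha v and alpha 5 families, and a neighbouring stretch, exposed by thrombin, for integrins with alpha 4 or alpha 9. Cd44 is a cell surface glycoprotein whose main ligand is hyaluronan and which has also been described as a receptor of osteopontin. Integrins work as pairs of an alpha and a beta subunit, so that a subunit on its own is not a receptor. In injured brain osteopontin is known chiefly from microglia and macrophages, and Cd44 from reactive astrocytes.

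The stretch before the transcription start is shown for the 3 genes that rose together in glia and for Itgb1, which did not pass the test in either fraction. The sequences are the 250 bases before the RefSeq start in GRCm38.p6, on the strand on which each gene is annotated, 5′ to 3′, with CpG dinucleotides in capitals. Spp1 lies on the plus strand (chr5:104434861-104435110), Cd44 on the minus strand (chr2:102901666-102901915), Itga5 on the minus strand (chr15:103366792-103367041) and Itgb1 on the plus strand (chr8:128685404-128685653).
Spp1: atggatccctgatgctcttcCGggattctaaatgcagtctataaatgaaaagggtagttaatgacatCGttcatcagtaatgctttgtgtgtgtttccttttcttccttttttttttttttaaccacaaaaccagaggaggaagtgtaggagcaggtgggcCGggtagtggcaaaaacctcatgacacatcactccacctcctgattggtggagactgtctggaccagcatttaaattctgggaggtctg
Cd44: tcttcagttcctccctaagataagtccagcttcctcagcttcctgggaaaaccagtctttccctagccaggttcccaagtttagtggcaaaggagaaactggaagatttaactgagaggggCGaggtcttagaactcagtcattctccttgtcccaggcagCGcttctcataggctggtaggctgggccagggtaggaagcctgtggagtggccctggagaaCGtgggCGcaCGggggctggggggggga
Itga5: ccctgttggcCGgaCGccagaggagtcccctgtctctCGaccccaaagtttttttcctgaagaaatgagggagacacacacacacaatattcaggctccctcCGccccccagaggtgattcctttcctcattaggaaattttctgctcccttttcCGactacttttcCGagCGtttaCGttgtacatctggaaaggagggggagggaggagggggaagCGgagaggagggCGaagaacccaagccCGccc
Itgb1: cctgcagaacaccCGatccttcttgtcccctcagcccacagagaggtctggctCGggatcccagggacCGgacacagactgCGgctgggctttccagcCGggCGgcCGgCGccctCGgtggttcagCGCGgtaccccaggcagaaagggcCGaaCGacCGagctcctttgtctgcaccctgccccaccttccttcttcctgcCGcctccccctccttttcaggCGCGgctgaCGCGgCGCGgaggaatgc
The number of CpG was 3 before Spp1, 5 before Cd44, 11 before Itga5 and 21 before Itgb1, beside a median of 6 over the 32851 RefSeq windows of that length. It was 18 before Itgav, 18 before Itgb5 and 6 before Itga4. The window of Itga9, with 10 CpG, starts 105002 bases away from the GENCODE start of the gene, and Itgb3 is named only. Of the other genes, Itgav and Itga4 lie on chromosome 2, Itgb1 on 8, Itga9 on 9, Itgb3 on 11 and Itgb5 on 16. The letters TGANTCA, which read the same on both strands and are bound by AP-1 factors, were in 0 of the 9 windows of 8 of the genes and in 6.75% of all windows. That says only that these letters are not in those 250 bases.

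Total counts lay between 7769400 and 40364768 per library (median 21380824.5). The 4 libraries of replicate 3 stood apart, with TMM factors from 0.663 to 0.846 against 0.930 to 1.55 in the others. The sort was checked with marker lists, as sums of CPM, the reads of a gene per 1000000 reads of the library after TMM scaling. The neuronal list of 10 genes summed to 4064 to 6914 CPM in neurons and 337 to 1361 CPM in glia. The microglial list of 10 genes summed to 47.8 to 113 CPM in neurons and 864 to 2694 CPM in glia. Not every list separated the fractions. In SH the endothelial list had 9.43 to 23.0 CPM in neurons and 9.86 to 40.4 CPM in glia. The blood leukocyte list had 3.22 to 11.8 and 2.90 to 18.2 CPM there, so that both lists overlapped between the fractions. The defining genes of 8 cell types (Rbfox3, Aldh1l1, Cx3cr1, Mbp, Pdgfra, Pecam1, Pdgfrb and Ccr2) were detected in every library. In bulk nuclei, fewer cells of a type and less RNA per cell cannot be told apart.

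Spp1 (ENSMUSG00000029304, chr5:104435118-104441050 in mm10), the ligand, was the member with the largest difference between KA and SH in glia. SH glia had 22.2, 3.65 and 5.86 CPM in replicates 1, 2 and 3. KA glia had 160, 287 and 786 CPM. Every KA pool lay above every SH pool, and the highest SH value came from a low-input library, SH glia replicate 1. The means were 10.6 ± 10.1 CPM in SH and 411 ± 331 CPM in KA (SD, n = 3), from 75 to 276 reads per SH library and 1836 to 19075 reads per KA library. Spp1 was upregulated with a logFC of 5.30 (SE 0.82, 95% interval 3.56 to 7.03), 39.3-fold. The FDR was 0.024 in the edgeR quasi-likelihood test across all genes, with a threshold of 0.25. The call was kept in all 6 fits that left out 1 glial library, with a logFC of 6.47 without SH glia replicate 1 and 4.41 without KA glia replicate 3. Without all pools of replicate 3, a setting added after the data were seen, the logFC was 4.12 and the FDR 0.327.

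In neurons Spp1 was low in SH and higher in KA. SH neurons had 1.45, 2.99 and 1.88 CPM, and KA neurons had 6.66, 19.2 and 35.7 CPM. The groups did not overlap, though the lowest KA value was 6.66 CPM, from 78 reads. The logFC was 3.28 (SE 0.76, 95% interval 1.67 to 4.89), 9.70-fold, with an FDR of 0.193 in the edgeR test. This call did not hold in 5 of the 6 fits without a neuronal library. The FDR was 0.960, 0.409 and 0.771 without SH neurons replicate 1, 2 and 3, 0.464 without KA neurons replicate 2 and 1.0 without KA neurons replicate 3, with logFC between 2.62 and 3.62. With the replicate number as a block, which pairs the KA and SH pools, the logFC was 3.09 and the FDR 0.00782.

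Part of Spp1 shares exons with Gm42793, an unconfirmed transcript on the same strand, over 309 of its 1648 exon bases (18.75%). Default counting leaves out reads that fall on exons of more than 1 gene, so the counts of Spp1 come from the rest. Gm42793 itself had 0.828 CPM or less in SH glia, with 0 reads in replicate 1, and 2.87, 10.9 and 40.7 CPM in KA glia. Its logFC in glia was 5.89 (SE 1.15, FDR 0.054 in the edgeR test), and the FDR was 0.275 without KA glia replicate 3. That fitted value depends on the prior count, because 1 SH library was at 0. With the reads of both genes added together, Spp1 had a logFC of 5.32 in glia and 3.19 in neurons.

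**Figure D1:**
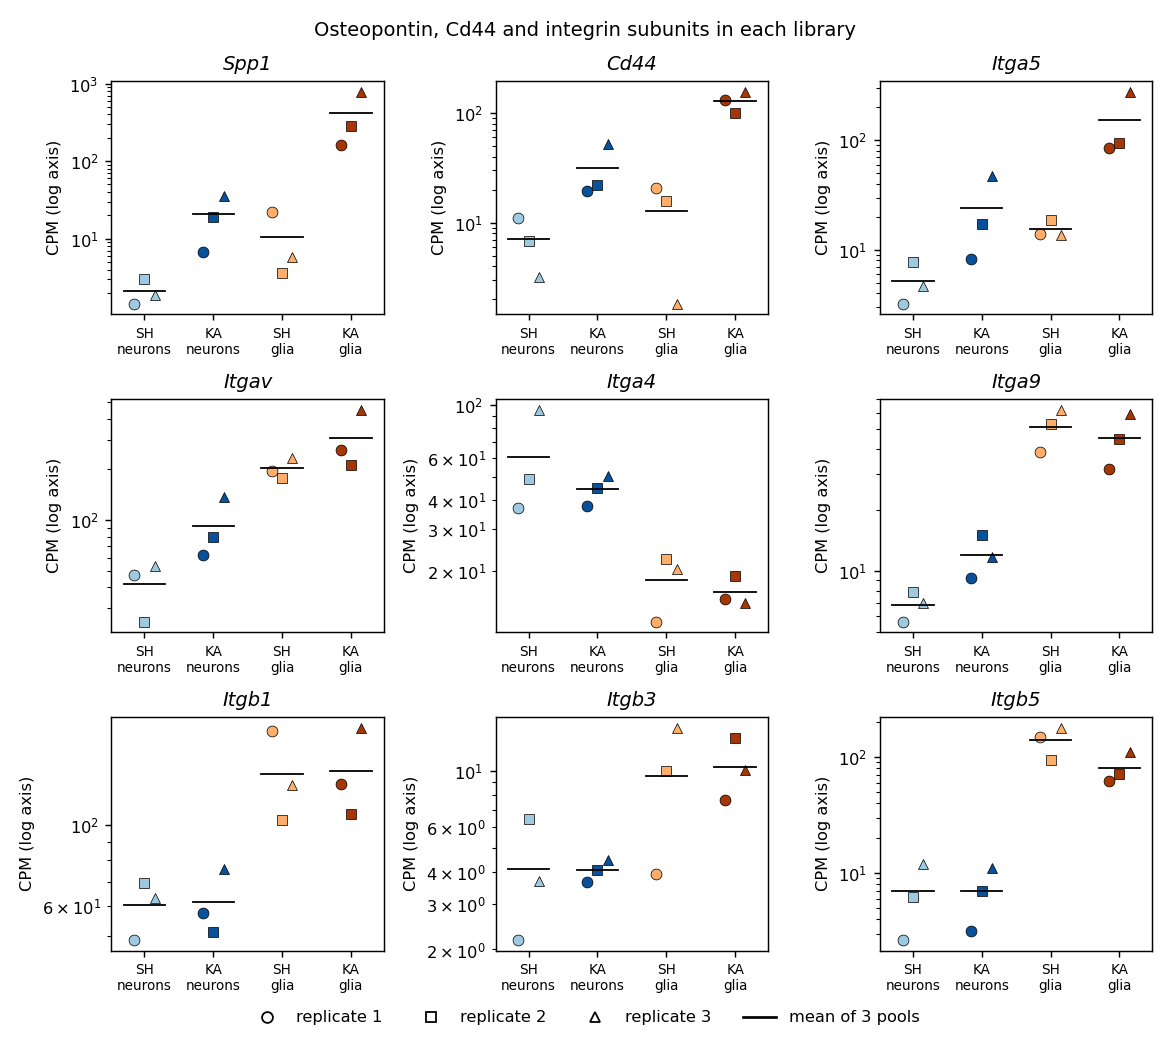
CPM (log axis) of the 9 genes in each of the 12 libraries, by group; circles, squares and triangles are replicates 1, 2 and 3, and the black line is the mean of the 3 pools. Spp1, Cd44 and Itga5 of KA glia lie above every SH glia library, and Itga4 is the gene with higher values in neurons than in glia.

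Cd44 (ENSMUSG00000005087, chr2:102811141-102901665 on the minus strand) rose in glia as well. SH glia had 20.7, 15.8 and 1.82 CPM and KA glia had 131, 100 and 157 CPM. The groups did not overlap, and the low SH value was that of replicate 3. The means were 12.8 ± 9.78 and 129 ± 28.4 CPM (SD, n = 3), and the logFC of 3.35 (SE 0.69, 95% interval 1.90 to 4.81), 10.2-fold, had an FDR of 0.066 in the edgeR test. All 6 fits without a glial library kept the call, with logFC from 2.83 to 4.03, the highest without SH glia replicate 1. Without all pools of replicate 3 the logFC was 2.66 and the FDR 0.220.

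In neurons Cd44 had 11.1, 6.79 and 3.18 CPM in SH and 19.5, 22.0 and 52.5 CPM in KA. The groups did not overlap, yet the test across all genes did not pass, with a logFC of 2.16 (SE 0.66, 95% interval 0.77 to 3.56) and an FDR of 0.601. With the replicate block the logFC was 2.13 and the FDR 0.107, past the threshold. The lowest pair of pools was replicate 1, with a log2 ratio of KA to SH of 0.81, against 1.70 and 4.04 in replicates 2 and 3.

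Itga5 (ENSMUSG00000000555, chr15:103344286-103366763 on the minus strand), the alpha subunit of the fibronectin receptor, was the only integrin member that was upregulated in glia. SH glia had 14.0, 18.9 and 13.8 CPM and KA glia had 85.5, 95 and 278 CPM. The KA pools lay apart from the SH pools, and the pool of replicate 3 was the highest. The logFC was 3.30 (SE 0.61, 95% interval 2.01 to 4.58), 9.83-fold, with an FDR of 0.044 in the edgeR test. The 6 fits without a glial library kept it, and the logFC was 2.53 without KA glia replicate 3. It was past the threshold neither without the pools of replicate 3 (logFC 2.45, FDR 0.327) nor without both low-input libraries (logFC 3.46, FDR 0.306).

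In neurons Itga5 had 3.21, 7.80 and 4.65 CPM in SH and 8.29, 17.1 and 47.1 CPM in KA. The groups were again separate, by a small margin between SH replicate 2 and KA replicate 1. The logFC was 2.21 (SE 0.59, 95% interval 0.97 to 3.45) with an FDR of 0.359 in the edgeR test, not past the threshold. The paper, whose methods treat each cell type separately, lists Itga5 as upregulated in neurons at the same threshold. With the replicate block the logFC was 1.95 with an FDR of 0.0213. Without KA neurons replicate 3 the logFC was 1.28, and without KA neurons replicate 1 it was 2.62 with an FDR of 0.114, past the threshold.

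Itgav, the alpha v subunit shared by the vitronectin and osteopontin receptors, was abundant in glia of both treatments. SH glia had 197, 179 and 234 CPM and KA glia had 262, 212 and 453 CPM, and these ranges overlapped (logFC 0.60, SE 0.42, 95% interval -0.28 to 1.49). In neurons it had 47.3, 24.9 and 53.1 CPM in SH and 61.8, 79.0 and 137 CPM in KA, without overlap. The neuronal logFC was 1.15 (SE 0.42, 95% interval 0.25 to 2.04) with an FDR of 1.0 in the edgeR test. With the replicate block the FDR was 0.0361 at a logFC of 1.14. On the opposite strand of Itgav lies Gm13684, over 5.90% of its exon bases. The counting did not use strand, so reads that fall on both genes are left out by default.

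Itga9 pairs with the beta 1 subunit and binds osteopontin and tenascin-C. SH neurons had 5.63, 7.88 and 6.98 CPM and KA neurons had 9.22, 15.0 and 11.7 CPM. Every KA value was above every SH value, with a logFC of 0.81 (SE 0.34, 95% interval 0.10 to 1.52) and an FDR of 1.0 in the edgeR test. The replicate block gave 0.80 and an FDR of 0.211, past the threshold. In glia the logFC was -0.18 (SE 0.33), from 51.1 ± 12 CPM in SH and 45.1 ± 13.7 CPM in KA (SD, n = 3). The log2 ratio of KA to SH was 0.71, 0.93 and 0.75 in the neuronal pairs and -0.27, -0.24 and -0.070 in the glial pairs. The difference of the effects, glia minus neurons, was -0.99 (SE 0.47, 95% interval -1.98 to 0.00342) with an FDR of 1.0 in the edgeR test, not past the threshold.

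Itga4, the alpha subunit of VLA-4 on leukocytes, did not pass the test. SH neurons had 36.8, 48.9 and 95.8 CPM and KA neurons had 37.7, 44.8 and 50.5 CPM, with overlap and a logFC of -0.45 (SE 0.36, 95% interval -1.22 to 0.32). In glia it had 12.2 to 22.4 CPM in SH and 14.7 to 19.0 CPM in KA, with a logFC of -0.17 (SE 0.37). Its exons overlap those of Cerkl on the opposite strand over 8.04% of their bases. Default counting without strand leaves out reads that fall on both genes, so the counts of Itga4 come from the rest.

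The 3 beta subunits had logFC near 0 in neurons and between -0.79 and 0.12 in glia. Itgb1, the partner of many alpha subunits, had 103 to 180 CPM in SH glia and 107 to 183 CPM in KA glia (logFC 0.026, SE 0.34, 95% interval -0.70 to 0.75). In neurons it had 48.7 to 69.5 CPM in SH and 51.1 to 75.8 CPM in KA (logFC 0.025, SE 0.34). Itgb3, which forms the vitronectin receptor with alpha v, was low, with 3.94 to 14.7 CPM in glia and 2.18 to 6.45 CPM in neurons over both treatments (logFC 0.12 and -0.016). The intervals allow changes of up to 0.75 for Itgb1 and up to 1.19 for Itgb3 in glia on the log2 scale.

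Itgb5, another partner of alpha v, had 149, 93.2 and 178 CPM in SH glia and 62.3, 70.6 and 110 CPM in KA glia. The KA value of each pair was the lower, though the highest KA pool exceeded the lowest SH pool. The logFC was -0.79 (SE 0.50, 95% interval -1.84 to 0.26) with an FDR of 1.0 in the edgeR test. With the replicate block it was -0.78 with an FDR of 0.115, past the threshold. In neurons it had 2.66 to 12 CPM in SH and 3.16 to 11 CPM in KA (logFC 0.026, SE 0.50).

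Counted over the 9 genes, 1 was upregulated and 0 downregulated in neurons, where 0.279% of all tested genes were upregulated and 0.0612% downregulated. In glia 3 were upregulated and 0 downregulated, where the shares of all tested genes were 0.442% and 0.306%. By an unadjusted p below 0.05, 5 genes in neurons and 3 in glia differed, all of them higher in KA. At that p 1.87% of all tested genes were higher and 1.33% lower in neurons, and 2.10% higher and 2.69% lower in glia. DESeq2 called 3 of the 9 upregulated in each fraction and 0 downregulated, where it called 0.811% of all genes up and 0.402% down in neurons and 0.971% up and 1.72% down in glia. With the replicate block 5 were upregulated (Spp1, Cd44, Itga5, Itgav and Itga9) and 0 downregulated in neurons, against 1.94% and 1.11% of all genes. In glia the block gave 3 upregulated and 1 downregulated, against 3.47% and 4.17%. KA and SH libraries did not overlap, with KA higher, for 5 of 9 genes in neurons and 3 of 9 in glia, against 5.27% and 3.61% of all genes. The median logFC of the 9 genes was 0.81 in neurons and 0.12 in glia, beside 0.00048 and 0.14 over all genes tested.

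**Figure D2:**
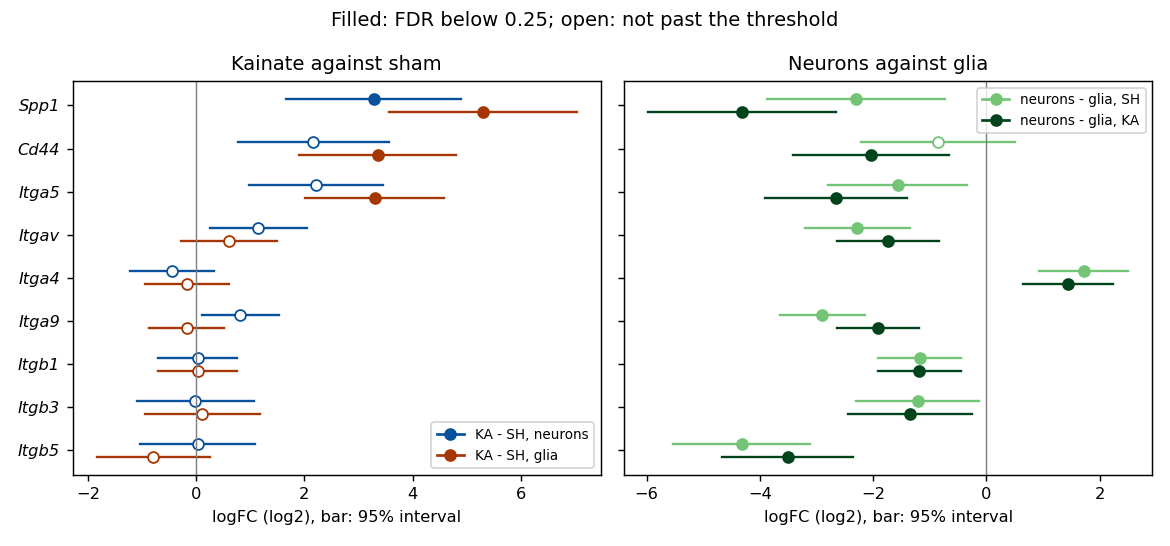
Left: logFC of KA against SH in neurons and in glia; right: logFC of neurons against glia in SH and in KA; bars are 95% intervals and filled points have an FDR below 0.25. In glia Spp1, Cd44 and Itga5 are filled, in neurons Spp1, and in the right panel Itga4 is on the side of neurons.

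**Figure D3:**
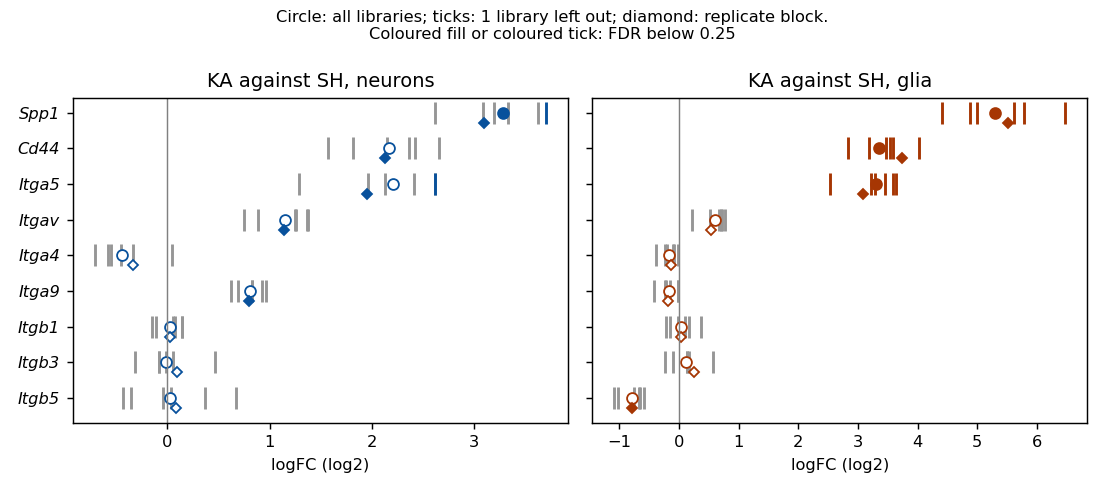
logFC of KA against SH with all 12 libraries (circles), with 1 library of that fraction left out (ticks) and with the replicate block (diamonds); coloured ticks and filled symbols have an FDR below 0.25. All 6 ticks of Spp1, Cd44 and Itga5 are coloured in glia, and 1 tick of Spp1 and 1 of Itga5 in neurons.

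Whether the effect of KA differed between the fractions was tested as the difference of both effects. No member passed (0 of 9 by edgeR, with 0 at an unadjusted p below 0.05 and 0 by DESeq2), and 0% of all genes did by edgeR. At the unadjusted p 0.574% of all genes had a larger effect in glia and 0.761% a smaller one, and DESeq2 called 0.0505% and 0.0532%. For Spp1 the effect in glia exceeded that in neurons by 2.02 on the log2 scale (SE 1.00, 95% interval -0.10 to 4.13). For Cd44 the difference was 1.19 (SE 0.90) and for Itga5 1.09 (SE 0.80), with intervals that reach 3.09 and 2.77. That fit does not use that each pool gave both fractions. With the pool as a block, the replicate block of this contrast, the differences were 2.42 (SE 0.63) for Spp1, 1.65 (SE 0.46) for Cd44 and 1.15 (SE 0.34) for Itga5. Their FDR in the edgeR test was 0.285, 0.352 and 0.422, not past the threshold, where 0.157% of all genes were called larger in glia and 0.314% smaller. At an unadjusted p below 0.05 the block had 3 members larger in glia (these 3) and 1 smaller, Itga9 at -0.99 (SE 0.31), beside 1.84% and 2.81% of all genes. The log2 ratio of KA to SH was larger in glia than in neurons in all 3 replicates for Spp1 (by 0.65, 3.62 and 2.82), Cd44 (by 1.86, 0.97 and 2.38) and Itga5 (by 1.0 to 1.24).

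In SH, 7 of the 9 genes were higher in glia and 1, Itga4, was higher in neurons, where 7.57% of all genes were called higher in glia and 12.3% in neurons. Itgb5 differed most, at 6.95 ± 4.69 CPM in neurons and 140 ± 43.1 CPM in glia (SD, n = 3), 20.0-fold higher in glia (logFC -4.33, SE 0.57, FDR 0.000176 in the edgeR test). Itga9 followed with a logFC of -2.90, and Spp1 and Itgav had -2.30 and -2.28. Itga4 had a logFC of 1.72 (SE 0.37, FDR 0.00603), 3.29-fold higher in neurons. Cd44 was not called, at 7.04 ± 3.98 CPM in neurons and 12.8 ± 9.78 CPM in glia (logFC -0.85, FDR 0.600). Itga5 (logFC -1.57), Itgb3 (-1.21) and Itgb1 (-1.18) had the smallest called differences. The call of Spp1 was lost without SH glia replicate 1 (logFC -1.51, FDR 0.252) and without both low-input libraries (logFC -1.46, FDR 0.410). That of Itga5 was lost without SH neurons replicate 1 or 3 (FDR 0.342 and 0.301), and that of Itgb3 without SH neurons replicate 1 or 3 or SH glia replicate 2 or 3 (FDR 0.497, 0.439, 0.292 and 0.513). Cd44 gained a call without SH glia replicate 3 (logFC -1.37, FDR 0.111). These fits do not use that each pool gave both fractions. With the pool as a block and all libraries, the FDR in the edgeR test was 0.00899 for Spp1, 0.000158 for Itga5 and 0.0349 for Itgb3. Cd44 was not called with the block either (FDR 0.367). Fits with libraries left out were made without the block only.

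In KA, 8 genes were higher in glia and Itga4 again in neurons, with 6.62% and 11.2% of all genes called in those directions. Spp1 was 19.9-fold higher in glia (logFC -4.32, SE 0.78, FDR 0.00198 in the edgeR test), Itgb5 11.4-fold (logFC -3.51) and Itga5 6.31-fold (logFC -2.66). Cd44 was now called, with 31.4 ± 18.4 CPM in neurons and 129 ± 28.4 CPM in glia (SD, n = 3, logFC -2.04, FDR 0.060). These contrasts use the same KA libraries as the comparison with SH, and the values stand side by side. Itgb3 kept its call in 2 of 6 fits, losing it without any of the KA neurons replicates or KA glia replicate 2 (FDR 0.307 to 0.440). These fits do not pair the fractions of a pool. With the pool as a block and all libraries, Itgb3 had an FDR of 0.0164 in the edgeR test. Without KA glia replicate 3 the logFC of Spp1 was -3.42 and that of Itga5 -1.88. It was -4.95 for Spp1 without KA glia replicate 1, and without KA neurons replicate 3 it was -4.97 for Spp1, -2.63 for Cd44 and -3.58 for Itga5.

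The level in neurons as a share of that in glia of the same pool was compared with the marker lists. For Spp1 it was 4.18%, 6.69% and 4.55% in the KA pools of replicates 1, 2 and 3. The microglial list had 5.53%, 7.57% and 6.27% in these pools, so that the shares of Spp1 lay below those of the list in each pool. Cd44 had 14.9%, 22.0% and 33.4% and Itga5 9.69%, 18.0% and 16.9%, above the microglial list in every KA pool. The astrocytic list had 13.4%, 35.5% and 46.6%. The oligodendrocytic list had 1.34%, 5.54% and 5.01%, so that Spp1 lay above it in replicates 1 and 2 and below it in replicate 3. The oligodendrocyte precursor list had 7.11%, 13.4% and 12.7%. The share of Spp1 was thus near those of more than 1 list. In the SH pools Spp1 had 6.55%, 82.0% and 32.1%, where the microglial list had 4.71%, 4.90% and 4.13%. Cd44 had 53.9%, 43.0% and 175% there and Itga5 22.9%, 41.3% and 33.8%. In each replicate the SH share of these 3 genes was above the KA share. That restates their larger log2 ratios of KA to SH in glia given above and is not a further result. The study measured the purity of both sorted fractions, and neither was fully pure. How much glial RNA in the NeuN+ nuclei adds to the neuronal values was not tested.

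**Figure D4:**
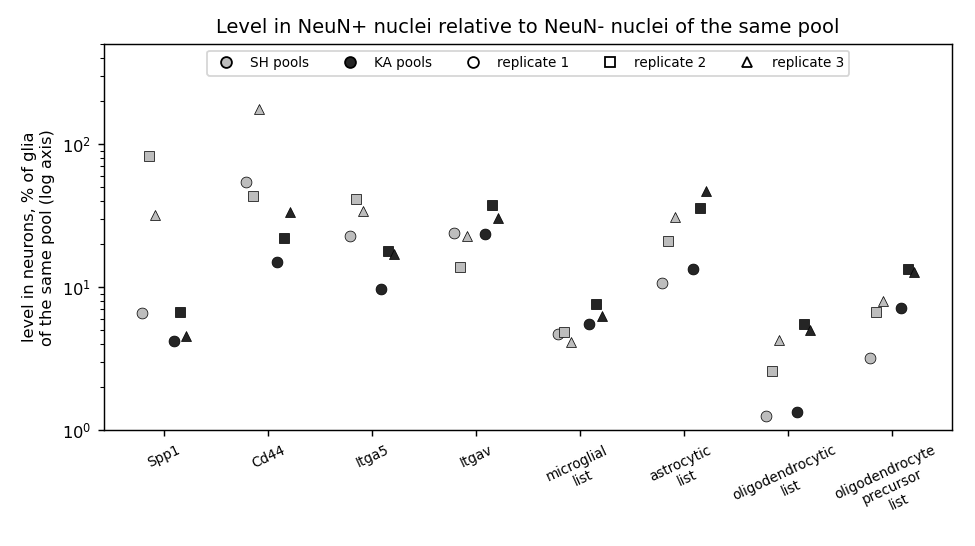
Level in neurons as percent of the level in glia of the same pool (log axis) for 4 genes and the sums of 4 marker lists; grey symbols are SH pools, black symbols KA pools, with a shape for each replicate. In KA pools Spp1 lies between 4.18% and 6.69%, beside 5.53% to 7.57% for the microglial list and 1.34% to 5.54% for the oligodendrocytic list.

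The sums of the marker lists were also compared between SH glia and KA glia. The oligodendrocytic list (8 genes) summed to 14283 to 29772 CPM in SH glia and 7488 to 14034 CPM in KA glia, and the precursor list (5 genes) to 941 to 1636 and 398 to 650 CPM. Both sets of ranges were separate, at an exact permutation p of 0.10, the smallest that 3 against 3 allows. The astrocytic list (10 genes) summed to 1969 to 2792 CPM in SH glia and 1189 to 2261 CPM in KA glia, the microglial list to 1156 to 2694 and 864 to 1807 CPM, and the endothelial list (7 genes) to 9.86 to 40.4 and 20.8 to 49.6 CPM. The ranges of each of these lists overlapped, at an exact permutation p of 0.2 (astrocytic), 0.2 (microglial) and 0.5 (endothelial). Single marker genes downregulated in glia were 2 of 10 microglial (P2ry12 with a logFC of -2.38 and Siglech with -2.18), 1 of 10 astrocytic (Aldoc, -1.76) and 1 of 5 precursor genes (Cspg4, -1.44), named after their values were seen. The astrocytic genes did not move together, with 3 of 10 at a logFC above 0 in glia and 7 below. The ranges of KA and SH glia were separate with KA higher for 2 of the 10 and with KA lower for 4. Gfap, the intermediate filament of reactive astrocytes, had 119 to 176 CPM in SH glia and 360 to 720 CPM in KA glia (logFC 1.94, FDR 0.546 in the edgeR test). Aqp4, an astrocytic water channel, had 72.4 to 102 and 130 to 158 CPM (logFC 0.68, FDR 1.0). Neither passed the test, though both sets of ranges were separate, with KA higher, and both were named after their values were seen. The blood leukocyte list (7 genes, 6 tested) summed to 2.90 to 18.2 CPM in SH glia and 6.63 to 27.3 CPM in KA glia. Of its genes S100a8 was at 0 in 7 libraries and S100a9 and Ly6c2 at 0 in 1 library each. What part the make-up of the glial fraction has in the values of Spp1, Cd44, Itga5 and Itgb5 was not tested.

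Levels of different genes were compared as CPM per kilobase of exon. In SH glia the order was Itgb5 (39.4 ± 12.1), Itgb1 (33.6 ± 9.58), Itgav (18.9 ± 2.62), Itga9 (6.64 ± 1.56), Spp1 (6.41 ± 6.14), Itga5 (3.15 ± 0.586), Cd44 (1.88 ± 1.44), Itgb3 (1.62 ± 0.914) and Itga4 (1.31 ± 0.388), as mean and SD of 3 pools. Neighbours in that order overlapped over their pools apart from Itgb1 with Itgav and Itgav with Itga9. In KA glia Spp1 stood first with 249 ± 201 CPM per kilobase, and its lowest pool (96.8) lay above the highest pool of Itgb1 (44.9), which was next at 34.2 ± 9.65. Itga5 (31.0 ± 22.0), Itgav (28.7 ± 11.8), Itgb5 (22.8 ± 7.13) and Cd44 (19.1 ± 4.19) followed, and in this stretch from Itgb1 to Cd44 each gene overlapped its neighbour. Itga9 (5.87 ± 1.78) lay apart below them. Itgb3 (1.76 ± 0.488) and Itga4 (1.17 ± 0.167) were last, apart from Itga9 and overlapping each other. The order depends on the length taken. Per kilobase of the longest transcript Itgav had 43.8 ± 18.0 in KA glia and stood second, before Itgb1 at 36.6 ± 10.3, with Spp1 still first and apart at 273 ± 219. In SH glia Itgb1 (27.1 to 47.2) then overlapped Itgav (25.4 to 33.2), and Itga4 (1.88) came before Itgb3 (1.65).

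In neurons Itgb1 was first in both treatments, with 14.8 ± 2.62 CPM per kilobase in SH and 15.1 ± 3.14 in KA. In SH neurons Itga4 (4.33 ± 2.23) and Itgav (3.89 ± 1.39) were next, apart from Itgb1 but overlapping each other. The other genes, from Itgb5 at 1.96 ± 1.32 to Itgb3 at 0.697 ± 0.367, each overlapped the next. In KA neurons Spp1 was second with 12.5 ± 8.85 CPM per kilobase, overlapping Itgb1 and Itgav (8.62 ± 3.67). Itga5 (4.90 ± 4.12), Cd44 (4.63 ± 2.71), Itga4 (3.17 ± 0.461), Itgb5 (1.98 ± 1.10) and Itga9 (1.56 ± 0.376) came next, and Itgb3 (0.691 ± 0.0665) stood apart at the end. Per kilobase of the longest transcript Cd44 came before Itga5 in both treatments, with overlap, and Itga4 lay apart from Itgb5 in KA neurons.

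The other genes of osteopontin and Cd44 signalling were taken as 6 lists. Of 20 other integrin subunits, 2 were upregulated in glia: Itga1, a collagen receptor subunit (13.4 to 35.2 CPM on average, logFC 1.39, FDR 0.187), and Itga7, a laminin receptor subunit (38.1 to 110 CPM, logFC 1.53, FDR 0.223). Neither call was stable, since Itga7 lost it in each of 6 fits without a glial library and Itga1 in 4 (without SH glia replicate 3 or any KA glia library, FDR 0.272 to 0.912). None of the 20 was downregulated in glia and none was called in neurons by the edgeR test. Over all genes that test called 0.442% up and 0.306% down in glia. At an unadjusted p below 0.05, 4 were higher and 2 lower in glia, and 2 higher and 1 lower in neurons. At that p 2.10% of all genes were higher and 2.69% lower in glia, and 1.87% higher and 1.33% lower in neurons. DESeq2 called 4 up and 2 down in glia and 1 up in neurons, and the replicate block 4 up and 3 down in glia and 3 up and 1 down in neurons. Over all genes the DESeq2 shares were 0.971% up and 1.72% down in glia and 0.811% up in neurons, and those of the block 3.47% and 4.17% in glia and 1.94% and 1.11% in neurons. Microglial and leukocyte subunits were not called: Itgam had means of 18.1 CPM in SH glia and 23.7 CPM in KA glia, and Itgb2 34.4 and 49.2 CPM. Itga2b, named after its values were seen, was not called by the edgeR test. It had a logFC of 2.00 in neurons (FDR 0.316) and 1.79 in glia (FDR 0.321). The replicate block called it up in both fractions, and the paper lists it as upregulated in glia.

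Of 12 other matrix ligands of these integrins, 4 were upregulated in glia, where 0.442% of all tested genes were: Fn1 (fibronectin, the ligand of Itga5 with Itgb1) from 17.0 to 123 CPM, at a logFC of 2.85 (FDR 0.028), Tnc (tenascin-C, a ligand of Itga9) from 24.5 to 109 CPM (logFC 2.16, FDR 0.032), Ccn1 (logFC 2.11, FDR 0.245) and Ccn2 (logFC 1.77, FDR 0.182), both matricellular proteins. In neurons Tnc (logFC 2.16, FDR 0.053) and Ccn1 (logFC 3.15, FDR 0.074) were upregulated, 2 of 12, beside 0.279% of all genes. Fn1 and Tnc in glia kept their calls in 6 of 6 fits without a glial library. Ccn1 and Ccn2 kept them in 2 of 6, losing them without SH glia replicate 1 or 3 or KA glia replicate 2 or 3 (FDR 0.347 to 0.756). In neurons 3 of 6 such fits ended the call of Tnc, those without replicate 1 or 3 of SH or replicate 3 of KA, and 3 that of Ccn1, without replicate 1 or 2 of SH or replicate 3 of KA (FDR 0.284 to 0.527). None was downregulated by the edgeR test. At an unadjusted p below 0.05, 6 were higher and 3 lower in glia, and 5 higher and 0 lower in neurons. The shares of all genes at that p were 2.10% higher and 2.69% lower in glia, and 1.87% and 1.33% in neurons. The replicate block gave 6 up and 3 down in glia and 4 up and 1 down in neurons, and DESeq2 6 up and 3 down in glia and 4 up in neurons. These settings called more of all genes too, the block 3.47% up and 4.17% down in glia and DESeq2 0.971% and 1.72%. For neurons the shares were 1.94% and 1.11% with the block and 0.811% and 0.402% with DESeq2.

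Of 9 hyaluronan genes, Has2, a hyaluronan synthase, was upregulated in glia, from 2.50 ± 0.650 to 24.5 ± 9.09 CPM (SD, n = 3, logFC 3.30, SE 0.57, FDR 0.030 in the edgeR test), and kept its call in 6 of 6 fits. In neurons 0 were called, with 3 higher at an unadjusted p below 0.05 and 1 called up by DESeq2 and by the block. The block also called 1 down in glia. Of 18 tested adhesion adaptors, Nedd9, a scaffold of integrin signalling, was upregulated in neurons (17.1 to 48.0 CPM, logFC 1.49, FDR 0.146) and in glia (21.2 to 55.2 CPM, logFC 1.38, FDR 0.140). It kept the neuronal call only without KA neurons replicate 1 and lost the glial call without SH glia replicate 3 or any KA glia library (FDR 0.30 to 0.666). In the other 5 neuronal fits the FDR was 0.393 to 0.945. The block called 2 adaptors up in each fraction and 4 down in glia. Over all genes the block called 1.94% up in neurons, and 3.47% up and 4.17% down in glia. The edgeR test without the block called 0.279% up in neurons and 0.442% in glia, and DESeq2 0.811% up in neurons. At an unadjusted p below 0.05, 1.87% of all genes were higher in neurons.

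Of the 7 tested proteases that cleave osteopontin or Cd44, 0 were called in either fraction by the edgeR test. At an unadjusted p below 0.05 there were 0 in neurons and 1 in glia, which DESeq2 and the block also called: Mmp12, the macrophage metalloelastase, with means of 1.67 CPM in SH glia and 8.72 CPM in KA glia (logFC 2.39, FDR 0.429). Of the 4 SIBLING genes, the relatives of Spp1 in the same gene cluster, 0 were called, with 1 higher at an unadjusted p below 0.05 in each fraction. DESeq2 and the block called 1 of them in neurons, Dmp1, from 2.70 to 8.10 CPM (logFC 1.59, FDR 0.449), and 0 in glia. Mmp12 and Dmp1 were named after their values were seen. At the unadjusted p 1.87% of all genes were higher in neurons and 2.10% in glia. DESeq2 called 0.811% and 0.971% of all genes up in those fractions, and the block 1.94% and 3.47%. The median logFC in glia was 0.36 for the other integrins, 0.88 for the matrix ligands, 0.36 for the hyaluronan genes, 0.27 for the proteases, -0.058 for the adaptors and 1.11 for the SIBLING genes, beside 0.14 over all genes. In neurons it was 0.11, 0.59, -0.030, -0.023, 0.070 and 0.46, beside 0.00048.

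**Figure D5:**
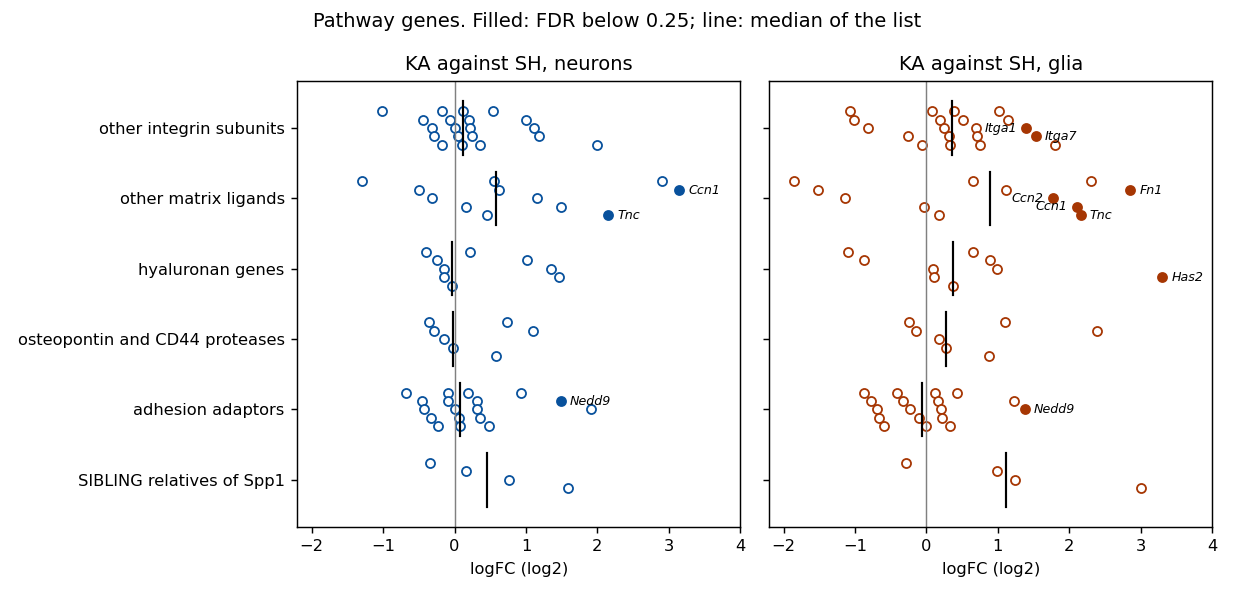
logFC of KA against SH in neurons (left) and glia (right) for the tested genes of 6 lists; each point is a gene, filled with its name where the FDR is below 0.25, and the black line is the median of the list. The matrix ligands hold 2 filled points in neurons and 4 in glia, and no filled point lies below 0.

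The genes with the pattern most like Spp1, by Pearson r of log2(CPM + 1) over the 12 libraries among 25226 genes, were Irf7 (0.984), Itga5 (0.957), Ifit3 (0.956), S1pr3 (0.951) and 2700038G22Rik (0.949). Irf7 and Ifit3 are interferon response genes and S1pr3 is a receptor of sphingosine 1-phosphate. For Cd44 they were Tm4sf1 (0.973), Tnn (0.962), Cxcl10 (0.955), Tnfrsf12a (0.944) and Slc10a6 (0.939). For Itga5 they were Hmox1 (0.978), Angptl2 (0.970), S1pr3 (0.969), Amotl1 (0.967) and Anxa2 (0.965). The points share pools, treatment and fraction, and such values describe these 12 libraries only. Among members, Spp1 and Itga5 had r = 0.97 over the 6 neuronal and 0.94 over the 6 glial libraries, and Spp1 and Cd44 0.88 and 0.89. Itgb5 and Cd44 had r = -0.76 in glia and -0.038 in neurons.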

How the data were processed

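The 12 mRNAseq libraries of sorted nuclei (4 groups, 3 pools each) were analysed; the 12 RRBS samples were not used here. The authors trimmed reads with Trim Galore 0.4.3, used Rsubread for alignment to mm10, and assigned reads that mapped to a single place to the genes of GENCODE M16 by featureCounts with its default settings, without strand. The deposited values are raw counts. Reads came from 2 sequencing platforms. The libraries run on each are not given in the sources used here, so platform and group cannot be told apart. Symbols and positions came from GENCODE M21, and 105 of 53379 genes had no symbol and were left out.

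edgeR 4.0.16 in R 4.3.3 (limma 3.58.1) was used: filterByExpr defaults (minimum count 10, minimum total 15), TMM, and a quasi-likelihood fit (legacy=TRUE) of 4 group means to all 12 libraries. The paper's methods treat the cell types separately, and separate fits were an alternative. p values were adjusted by Benjamini-Hochberg over 37598 genes, with a threshold of 0.25. The SE of a logFC was its size divided by the root of the F statistic. Pools are separate groups of mice, so p values measure the spread between pools. Each pool gave a neuronal and a glial library.

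KA and SH pools share replicate numbers. Deviations from the group means correlated, for replicates 1, 2 and 3, at 0.449, 0.276 and 0.646 in neurons and 0.516, 0.513 and 0.806 in glia. A second fit therefore carried a replicate block (by pool for contrasts between fractions). KA and SH pools of unlike number had -0.581 to 0.132 in neurons and -0.693 to 0.252 in glia. Deviations from a mean of 3 sum to 0, so positive values for like numbers by themselves lower the others. The highest correlation between any 2 libraries was 0.985, and none was a duplicate.

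Members and lists were chosen with earlier results of these data known. Named genes are the 9 members, every list gene past the threshold, Gm42793, the 5 genes most like Spp1, Cd44 and Itga5 (mean of at least 1 CPM, pseudocount 1) and defining markers; others are marked where named. Promoter windows were cut to the 250 bases before the RefSeq start. Marker sums were compared with an exact two-sided permutation test. Alternatives were DESeq2 1.42.0, edgeR 4 (legacy=FALSE), RLE size factors, no filter, separate fits, blocks, all gene IDs, added reads of Gm42793, length of the longest transcript, and libraries or pools left out. Plots were made in Python 3.11.15 (matplotlib 3.10.9). The value of 1 marker gene is not reported here.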

Additional observations from a re-analysis of the deposited data

How the results depend on the processing

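The upregulation of Spp1, Cd44 and Itga5 in glia was kept under separate fits, RLE size factors, no filter, the replicate block, edgeR 4, DESeq2 and all gene IDs; without the low-input libraries Itga5 lost it. The number of members upregulated in neurons, 1, was 4 with separate fits, 5 with the replicate block and 3 with DESeq2, 0 without the pools of replicate 3 (chosen after seeing the data), and 0 to 2 with 1 library left out. The shares of all genes for the block and DESeq2 are given above. For separate fits and libraries left out they are not given here, so those counts have no background beside them. In glia it was 3 in all fits with 1 library left out and 1 without the pools of replicate 3, and the block called 1 member downregulated. The block changed the calls of Cd44, Itga5, Itgav and Itga9 in neurons and Itgb5 in glia, and no other call of a member. The cause of these shifts was not tested.

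Among members, signs changed only for logFC that were not called in any fit. With RLE size factors they were -0.000096 for Itgb5 in neurons, -0.000715 for Itgb1 in glia and -0.00554 for the difference of Itgb1. With DESeq2 the same values were -0.00187, -0.000554 and -0.00527. Without a filter they were -0.037 for Itgb1 and -0.081 for Itgb3 in glia, and -0.053 and -0.063 for their differences. The replicate block gave 0.091 for Itgb3 in neurons and separate fits 0.021 for Itga4 in glia. Without the low-input libraries Itgb3 had -0.63 in glia, and the differences of Itgb3 and Itga4 were -0.61 and -0.21. Without the pools of replicate 3 Itgb1 had -0.12 in neurons and -0.27 in glia. With 1 library left out, logFC in neurons ranged from -0.15 to 0.14 for Itgb1, -0.32 to 0.47 for Itgb3, -0.44 to 0.67 for Itgb5 and -0.71 to 0.049 for Itga4, in glia from -0.23 to 0.37 for Itgb1 and -0.23 to 0.57 for Itgb3, and the differences from -0.25 to 0.33 for Itgb1, -0.36 to 0.58 for Itgb3 and -0.23 to 0.53 for Itga4.

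Separate fits moved the median logFC of all genes in glia from 0.14 to 0.30, and RLE size factors moved that of neurons against glia from 0.011 to -0.14 in SH and from -0.24 to -0.39 in KA. Depth limits Itgb3, with 36 reads in SH neurons replicate 1, and Spp1 in SH neurons, with 24 to 71 reads.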
